A study of Mus musculus with 56 samples.

Results

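Cish, Socs1, Socs2, and Socs3 encode 4 of the cytokine-inducible SH2 proteins that switch cytokine receptors off again. Their ChIP-seq peaks in mouse bone marrow-derived macrophages (BMDMs) were collected from all 56 peak lists of the series by the gene name that the lists give each peak, which is the gene with the nearest annotated start. These 4 names are among 20352 gene names in the lists, and they carried 883 of 1610519 peaks. Socs1 had 431 peaks, Socs3 252, Cish 175, and Socs2 25.

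Cytokines such as IL-4 act through receptors that activate JAK kinases, and the kinases phosphorylate STAT transcription factors, STAT6 in the case of IL-4. STATs enter the nucleus, bind DNA, and activate genes that include the SOCS family. The SOCS proteins then bind the receptors or the kinases and damp the signal, so that the pathway limits itself. CIS, the product of Cish, and SOCS2 act mainly at receptors of the STAT5 pathway, SOCS1 inhibits JAK kinases directly, and SOCS3 is best known for restraining signaling through gp130, the receptor subunit shared by IL-6 and its relatives. LPS, a bacterial membrane component sensed by TLR4, activates the NF-κB subunit p65, and macrophages induce Socs1 and Socs3 in response to it.

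All cells were wild-type BMDMs of mice aged 8 to 12 weeks (C57BL/6 by the methods of the study), grown for 6 days in L929 supernatant as a source of M-CSF. In the 1 hr experiment, untreated cells (ctrl) were compared with cells given 20 ng/ml IL-4 for 1 hr, with 2 replicates each, for 8 antibodies: RNAPII-pS5 (RNA polymerase II at initiation), RNAPII-pS2 (elongating polymerase), H3K27Ac (a mark of active promoters and enhancers), the acetyltransferase p300, the macrophage factor PU.1, and the deacetylases HDAC1, HDAC2, and HDAC3. In the pretreatment experiment, cells were left alone or given IL-4 for 24 hr (IL-4 pretreatment, IL-4 PT), and then left alone or given 100 ng/ml LPS for 1 hr (the labels' unit, where the methods of the study give nM), for RNAPII-pS5, RNAPII-pS2, and p65. Each of the 4 groups had 2 replicates and is named by both steps (ctrl/ctrl had neither treatment, ctrl/LPS had LPS alone, IL-4 PT/ctrl had IL-4 alone, and IL-4 PT/LPS had both). Each library came from a bulk culture, in which more bound cells and more binding per cell cannot be told apart.

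The lists held between 8440 and 71027 peaks per library, and no reads, so sequencing depth is unknown. The p300 library of ctrl replicate 1 stood apart with 44787 peaks, against 66710 to 69360 in the other p300 libraries, and p300 values are therefore also given without it. For RNAPII-pS2 at 1 hr, the peaks in each of the 4 lists are named after the treatment that the sample's label does not give. The labels were kept, and under the peak names every RNAPII-pS2 change of that experiment would have the opposite sign. Of 8 macrophage markers, Csf1r, Itgam, Cd68, Lyz2, Mertk, and Fcgr1 had an RNAPII-pS5 peak in every library of the 1 hr experiment (Adgre1 and Spi1 did not), with summed scores of 370.7 to 461.7. With H3K27Ac, 3 or 4 of the 8 had a region, with summed signals of 1517 to 2432. Of other cells, Cd3d, Ms4a1, Flt3, S100a8, and Klf1 had an H3K27Ac region in every library, and the fibroblast markers had none. Summed signals were 156.3 to 170.6 for T cells, 598.3 to 867.2 for B cells, and 173.4 to 232.1 for dendritic cells. For neutrophils they were 41.1 to 60.9, and for erythroid cells 51.2 to 65.2. Of the markers of other cells, 1 of 4 of T cells (Cd3d), 1 of 4 of B cells (Ms4a1), 1 of 2 of dendritic cells (Flt3), and 1 of 2 of erythroid cells (Klf1) also had an RNAPII-pS5 peak in every library of the 1 hr experiment, with summed scores of 55 to 64.5, 43.6 to 102.6, 43.7 to 67.9, and 30.6 to 51.5. Of 4 neutrophil markers, 1 or 2 had a peak (Elane in every library, summed scores of 2.97 to 16.6), and 0 of 2 fibroblast markers had any. The part of other cells in the results was not tested.

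The peaks of the 4 genes were placed on mm10 (GRCm38). Cish (chr9:107296026-107302784, plus strand) had peaks from -1.19 to +17.4 kb of its annotated start, and 121 of its 175 peaks were intergenic. Socs1 (chr16:10782240-10785536, minus strand) had the longest stretch, to 119.8 kb after its start. Its farther peaks lay inside the neighboring gene Clec16a (chr16:10545339-10744878), and 262 of its 431 peaks were annotated as intronic. Socs3 (chr11:117966079-117970047, minus strand) had peaks from -8.67 to +32.4 kb of its start, of which 207 of 252 were intergenic. Socs2 (chr10:95385362-95417180, minus strand) had 16 of its 25 peaks at its promoter, which it shares with the divergent gene 5730420D15Rik. A distance is counted from the nearest annotated start of the gene, and Socs2 has more than 1 start.

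When peaks of the 6 factor antibodies (PU.1, p300, HDAC1, HDAC2, HDAC3, and p65) were merged where they overlapped, Socs1 had 32 elements, Socs3 18, Cish 8, and Socs2 3. Of the 32 Socs1 elements, 17 lay in Clec16a and 13 were intergenic. The Socs3 elements at +9.2 kb and +22.6 kb were the ones with a peak in every factor library of both experiments. The sequences below carry the main results. They are 300 bases around the center of an element, read 5′ to 3′ on the plus strand of GRCm38, and the Cish promoter is the RefSeq window of 250 bases before to 50 bases after the start, on the gene's strand. In the first 6 sequences, capitals mark STAT letters, the bases TTC and GAA spaced 3 or 4 bases apart, which read the same on both strands. These elements gained p300 with IL-4, and the letters are those of the known STAT motif, of which STAT6 prefers the wider spacing. Other elements that gained p300 had no STAT letters in their window, such as Socs1 +95.6 kb and Cish +6.6 kb. Socs3 +9.2 kb has the letters and had no called p300 gain. A link between the letters and the gain was not tested.
Cish promoter, chr9:107296409-107296708: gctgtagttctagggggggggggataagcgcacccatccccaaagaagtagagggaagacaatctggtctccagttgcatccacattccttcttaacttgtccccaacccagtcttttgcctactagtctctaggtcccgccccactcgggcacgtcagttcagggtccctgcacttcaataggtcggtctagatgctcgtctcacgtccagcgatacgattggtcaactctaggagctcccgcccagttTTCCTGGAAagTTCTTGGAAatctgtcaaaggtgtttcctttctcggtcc
Cish +11.3 kb, chr9:107307878-107308177: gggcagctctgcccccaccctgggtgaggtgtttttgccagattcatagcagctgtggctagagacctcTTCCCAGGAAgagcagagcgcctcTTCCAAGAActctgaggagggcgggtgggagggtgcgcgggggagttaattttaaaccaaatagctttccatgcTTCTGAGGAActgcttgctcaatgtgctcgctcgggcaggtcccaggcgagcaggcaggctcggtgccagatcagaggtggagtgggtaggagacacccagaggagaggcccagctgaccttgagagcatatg
Socs1 -0.6 kb, chr16:10785985-10786284: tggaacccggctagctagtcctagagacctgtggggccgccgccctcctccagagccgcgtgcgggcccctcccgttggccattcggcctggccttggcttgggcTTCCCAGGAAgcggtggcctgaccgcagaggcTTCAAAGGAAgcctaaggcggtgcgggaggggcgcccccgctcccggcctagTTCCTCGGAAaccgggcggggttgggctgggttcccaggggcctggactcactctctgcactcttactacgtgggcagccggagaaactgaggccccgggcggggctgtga
Socs1 +40.1 kb, chr16:10745297-10745596: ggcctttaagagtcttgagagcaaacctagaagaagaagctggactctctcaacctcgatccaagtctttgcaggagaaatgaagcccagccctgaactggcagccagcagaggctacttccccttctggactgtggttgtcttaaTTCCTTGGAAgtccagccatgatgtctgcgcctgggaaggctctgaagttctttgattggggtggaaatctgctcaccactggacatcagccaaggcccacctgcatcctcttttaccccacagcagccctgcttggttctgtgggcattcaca
Socs1 +90.4 kb, chr16:10695005-10695304: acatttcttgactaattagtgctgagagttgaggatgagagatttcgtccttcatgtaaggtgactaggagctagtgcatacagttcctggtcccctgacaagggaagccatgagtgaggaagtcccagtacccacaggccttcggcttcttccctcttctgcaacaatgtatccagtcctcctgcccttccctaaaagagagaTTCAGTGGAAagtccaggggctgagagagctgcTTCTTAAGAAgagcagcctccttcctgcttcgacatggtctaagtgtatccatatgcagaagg
Socs3 -6.9 kb, chr11:117976083-117976382: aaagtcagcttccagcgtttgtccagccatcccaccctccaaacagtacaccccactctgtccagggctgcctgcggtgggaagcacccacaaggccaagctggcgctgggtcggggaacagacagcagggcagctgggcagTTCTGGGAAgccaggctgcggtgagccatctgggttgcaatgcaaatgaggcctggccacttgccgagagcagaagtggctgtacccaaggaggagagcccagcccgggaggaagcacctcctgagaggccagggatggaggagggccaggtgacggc

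In the next pair, which bound p65, capitals mark NF-κB letters, GGG, 2 bases, TT, 1 base, and CC on either strand. The Cish element has 2 matches that overlap.
Cish +9.7 kb, chr9:107306284-107306583: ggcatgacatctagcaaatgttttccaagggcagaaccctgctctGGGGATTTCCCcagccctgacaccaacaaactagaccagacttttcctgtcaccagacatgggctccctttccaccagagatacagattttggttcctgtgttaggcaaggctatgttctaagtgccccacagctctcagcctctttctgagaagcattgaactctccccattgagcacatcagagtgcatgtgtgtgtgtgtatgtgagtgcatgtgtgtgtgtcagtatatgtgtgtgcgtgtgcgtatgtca
Socs3 -8.6 kb, chr11:117977850-117978149: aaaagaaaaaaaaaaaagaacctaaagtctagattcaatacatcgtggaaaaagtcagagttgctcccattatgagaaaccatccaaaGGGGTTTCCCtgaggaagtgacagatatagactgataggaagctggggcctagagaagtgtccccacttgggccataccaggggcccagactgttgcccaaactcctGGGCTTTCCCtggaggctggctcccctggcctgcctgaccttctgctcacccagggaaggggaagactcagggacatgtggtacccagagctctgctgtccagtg

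STAT letters occurred in the 300 bases around the center of 18 of 43 p300 sites of the 4 genes (41.9%), against 22.8% of all 81224 p300 sites. For PU.1 the shares were 17 of 39 (43.6%) and 28.2% of 107213, and for p65 14 of 27 (51.9%) and 21.5% of 51410. NF-κB letters were found at 8 of 27 p65 sites (29.6%), against 12.7% of all p65 sites. The PU.1 letters GAGGAAGT, searched on both strands, were found at 10 of 39 PU.1 sites (25.6%), against 22.5% of all PU.1 sites. RefSeq promoters were found for 3 of the 4 genes. The Cish promoter has 2 STAT matches, which start at the start site and 11 bases after it, the Socs3 promoter has 1 match that starts 154 bases before it, and 14.7% of 27025 RefSeq promoters have at least 1. A match is a description of the letters and not a measured binding site.

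For each library, the scores of all peaks of a gene were summed. A peak score is on the −log10 scale of a caller's p- or q-value, or for H3K27Ac it is a signal of normalized tags, so that a log2 change of a score describes the strength of the calls and not an amount of protein. Genes without a peak were set to the lowest score of the antibody, each library was centered on the median of the genes with a peak in every library, and changes were tested with limma over all genes, with a gene called at an adjusted p of at most 0.1 (Benjamini-Hochberg). Changes are therefore relative to the typical gene with a peak in the same libraries. A gene or site with no peak in any library of 1 group enters the test through the other group, and its fitted size is set by that lowest score. For such genes no size is given, and such sites are described by their scores, with no test, and are not in the counts of sites.

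The RNAPII-pS5 score of the peaks named for Cish and for Socs1 rose within 1 hr of IL-4. The summed score of Cish was 43.9 and 27.5 in the ctrl libraries and 96.7 and 103.5 in the IL-4 libraries. That of Socs1 was 91.5 and 57.2 in ctrl and 261.3 and 223.7 in IL-4. In both genes the IL-4 libraries lay above both ctrl libraries. The share of all genes with such an order was not counted, here or in later comparisons. The log2 change was 1.57 ± 0.17 (SE, adjusted p = 0.012) for Cish and 1.79 ± 0.12 (adjusted p = 0.003) for Socs1. Socs3 had scores of 117.9 and 65.5 in ctrl and 130.9 and 121.7 in IL-4, a change of 0.57 ± 0.14 that did not pass (adjusted p = 0.118). Socs2 had no peak in ctrl and scores of 11.2 and 3.41 in IL-4 and was not called (adjusted p = 0.309). So 2 of the 4 genes were called, against 3.38% of 13481 genes tested. If only the highest peak of each gene was used, neither was called: Cish changed by 0.97 (adjusted p = 0.139) and Socs1 by -0.24 (adjusted p = 0.610).

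The gain of the Socs1 score lay away from its promoter. Peaks inside Clec16a count for Socs1 by the nearest annotated start, and which gene their polymerase transcribes was not tested. The promoter site of Socs1 had RNAPII-pS5 scores of 51.9 and 35.2 in ctrl and 35.4 and 29.6 in IL-4 (change of -0.29 ± 0.19, adjusted p = 0.424). At +3.0 kb, across the end of the gene, no ctrl library had a peak and the IL-4 libraries scored 19.7 and 21.3. In Clec16a, the site at +71.8 kb scored 4.12 and no peak in ctrl against 28.8 and 35.9 in IL-4 (adjusted p = 0.016), and the site at +90.4 kb 7.51 and 5.64 against 35.5 and 18.7 (adjusted p = 0.040). At Cish, the site at the start of the gene (+0.3 kb) rose from 9.79 and 7.28 to 35.5 and 36.1 (2.20 ± 0.29, adjusted p = 0.016), and the intergenic site at +16.5 kb rose from 34.1 and 20.2 to 50 and 51.9 (1.07 ± 0.20, adjusted p = 0.036). The start of Socs3 also rose, from 59.3 and 25.4 to 87.9 and 73.8 (1.17 ± 0.22, adjusted p = 0.040). The Socs2 promoter had no peak in ctrl and scores of 11.2 and 11.1 in IL-4. In IL-4 replicate 2 this promoter peak is named for 5730420D15Rik, and the summed score of Socs2 came from a peak at +4.0 kb (3.41). Of the 12 RNAPII-pS5 sites of the 4 genes with a peak in both groups, 6 were called and all 6 rose, against 3.47% of 28634 such sites called in either direction. At 12 of all 32 sites, 9 of them at Socs1, a peak was present in both IL-4 libraries and in neither ctrl library, against 3.43% of all RNAPII-pS5 sites.

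**Figure D1:**
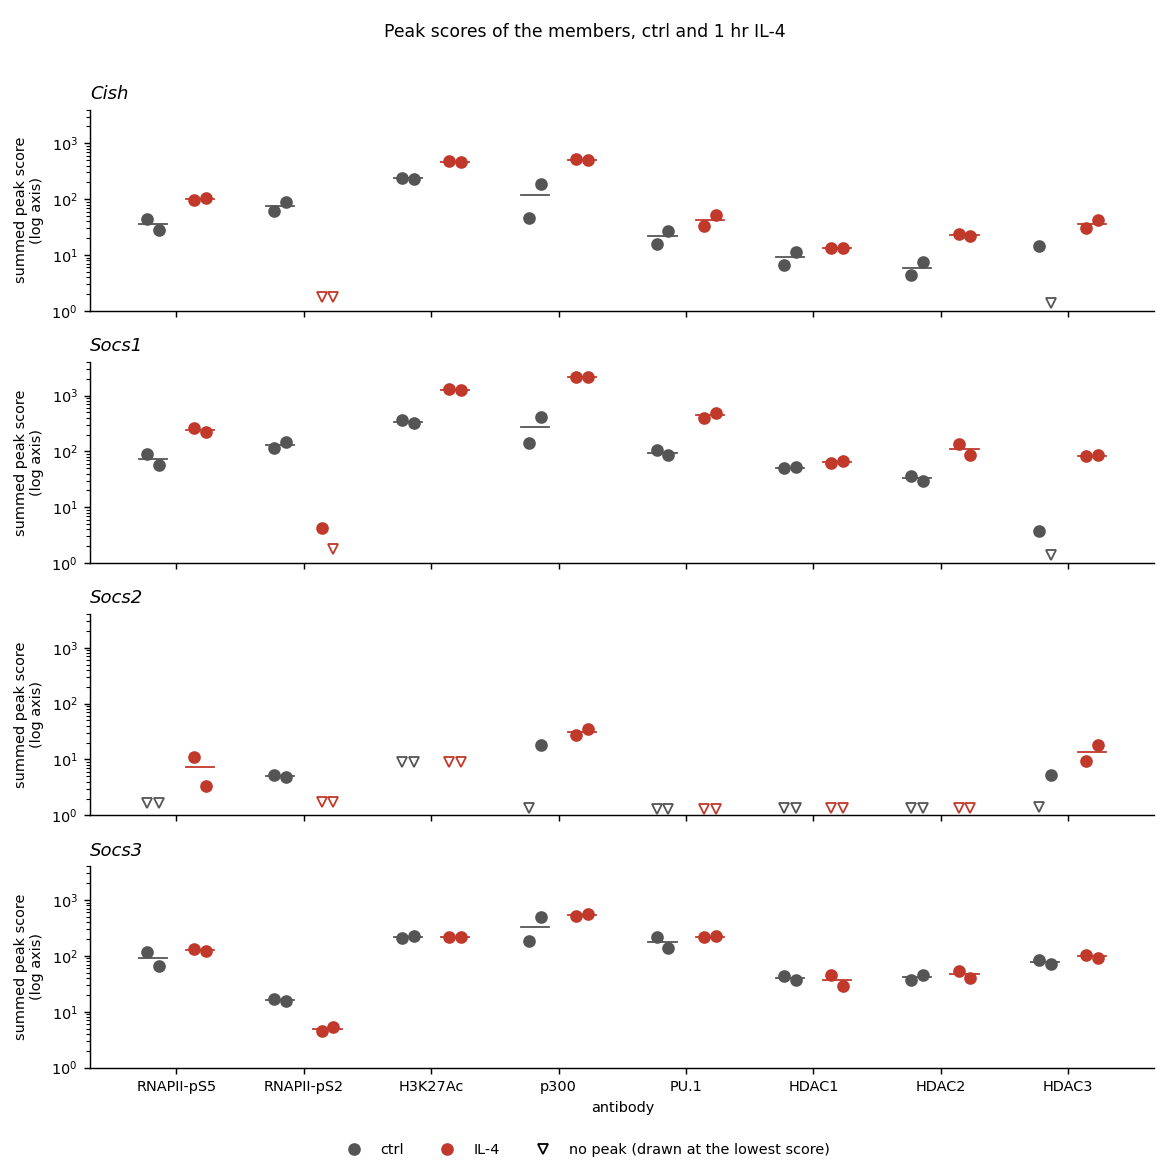
Summed peak score of each gene (log axis) in each ctrl and IL-4 library of the 1 hr experiment, by antibody; points are libraries, lines are means of 2 libraries, and open triangles mark libraries without a peak. The IL-4 libraries of Socs1 lie above its ctrl libraries for every antibody but RNAPII-pS2, whose libraries are shown as labelled and whose peak names carry the opposite treatment. For HDAC1 the Socs1 change was not called (limma, adjusted p = 0.602).

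For RNAPII-pS2, the libraries labelled ctrl had scores of 60.5 and 90.6 at Cish, and the libraries labelled IL-4 had no peak. Socs1 had scores of 116.9 and 144.3 in the libraries labelled ctrl, and 4.28 and no peak in those labelled IL-4. As labelled, Socs1 changed by -5.48 ± 0.43 (adjusted p = 3.9e-07), and by the peak names the same value would be an increase. Cish was also called, but it entered the test through the libraries labelled ctrl alone. Its call and its size follow from their peaks and the lowest score. Socs3 scored 16.6 and 15.8 against 4.5 and 5.4 (-1.64 ± 0.62, adjusted p = 0.140), and Socs2 5.31 and 4.9 against no peak (adjusted p = 0.321). Of all 10617 genes, 8.61% were called. As labelled, the scores of Cish and Socs1 were lower with IL-4, whereas their RNAPII-pS5 scores rose (1.57 and 1.79). The study reports that RNAPII-pS2 correlated positively with RNAPII-pS5 at gene bodies in this experiment. Which of the treatment names is right was not tested.

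H3K27Ac rose at Cish and Socs1. The signal summed over regions was 236.3 and 232.8 at Cish in ctrl and 473.5 and 462.3 in IL-4 (1.00 ± 0.04, adjusted p = 0.00064). At Socs1 it was 357.7 and 323.3 in ctrl and 1291 and 1260 in IL-4 (1.91 ± 0.06, adjusted p = 0.00037). Socs3 held 212.8 and 227.5 in ctrl and 220.9 and 216.6 in IL-4, a change of -0.0024 (adjusted p = 0.98), and Socs2 had no region in any library. The mark was called changed at 45.5% of 13035 genes, so that 2 of 3 genes with a region is little more than the background, and the sizes carry the information. The promoter region of Socs1 rose from 175.0 and 168.4 to 683.7 and 646.0 (2.01 ± 0.05, adjusted p = 0.00012). The region at +90.5 kb, inside Clec16a, rose from 24.3 and 25.3 to 219.2 and 226.0 (3.22 ± 0.07, adjusted p = 8.4e-05), and that at +40.1 kb had no signal called in ctrl and 47.7 and 48.6 in IL-4. By contrast, the region at +30.6 kb changed by 0.53 ± 0.11, from 122.5 and 101.2 to 149.0 and 161.8 (adjusted p = 0.024).

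At Cish, the promoter region rose from 14.1 and 16.9 to 86.4 and 91.6 (2.58 ± 0.13, adjusted p = 0.00078), and the stronger region at +16.5 kb from 208.4 and 203.4 to 387.1 and 370.7 (0.93 ± 0.04, adjusted p = 0.00064). A weak region at +9.7 kb had 13.8 and 12.5 in ctrl and none was called in IL-4. The sum of Socs3 held changes of both signs. Its promoter region rose from 39.3 and 29.7 to 71.9 and 67.3 (1.08 ± 0.16, adjusted p = 0.011). The region at +22.6 kb fell from 87.2 and 92.8 to 70.9 and 71.9 (-0.28 ± 0.07, adjusted p = 0.037), and that at +9.3 kb had 86.3 and 105.0 in ctrl and 78.1 and 77.4 in IL-4 (adjusted p = 0.174). Without intergenic regions, Socs3 rose by 1.01 (adjusted p = 0.022). Of the 10 regions of the 3 genes found in both groups, 8 rose and 1 fell, against 50.4% of 26142 such regions called in either direction.

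p300 rose at Socs1 and Cish. The summed score of Socs1 was 138.7 and 415.1 in ctrl, from 10 and 12 peaks, and 2143 and 2151 in IL-4, from 23 peaks in each library. The change was 2.31 ± 0.12 (adjusted p = 0.00013), and 2.36 ± 0.05 without ctrl replicate 1 (adjusted p = 3.8e-10). Cish had 46.3 and 188.5 in ctrl and 517.8 and 497.5 in IL-4 (1.59 ± 0.14, adjusted p = 0.0004, and 1.42 ± 0.09 without ctrl replicate 1, adjusted p = 6.4e-07). Socs3 had 182.2 and 488.2 in ctrl and 516.7 and 572.3 in IL-4. Relative to the typical gene, Socs3 changed by 0.01 ± 0.13 (adjusted p = 0.954), and by 0.15 ± 0.08 without ctrl replicate 1. The typical log2 p300 score was 4.895 and 6.603 in ctrl replicates 1 and 2, and 6.579 and 6.625 in IL-4. Its mean difference of 0.85 between the groups therefore came from ctrl replicate 1. Socs2 had no peak and 18.1 in ctrl and 27.4 and 34.7 in IL-4 (1.79 ± 0.72, adjusted p = 0.118, and 0.76 ± 0.36 without ctrl replicate 1). The 2 called genes compare with 27.7% of 15708 genes. Without centering, Cish had a value of 2.44 that was not called (adjusted p = 0.329), and without intergenic peaks Socs3 rose by 1.90 (adjusted p = 0.023).

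**Figure D2:**
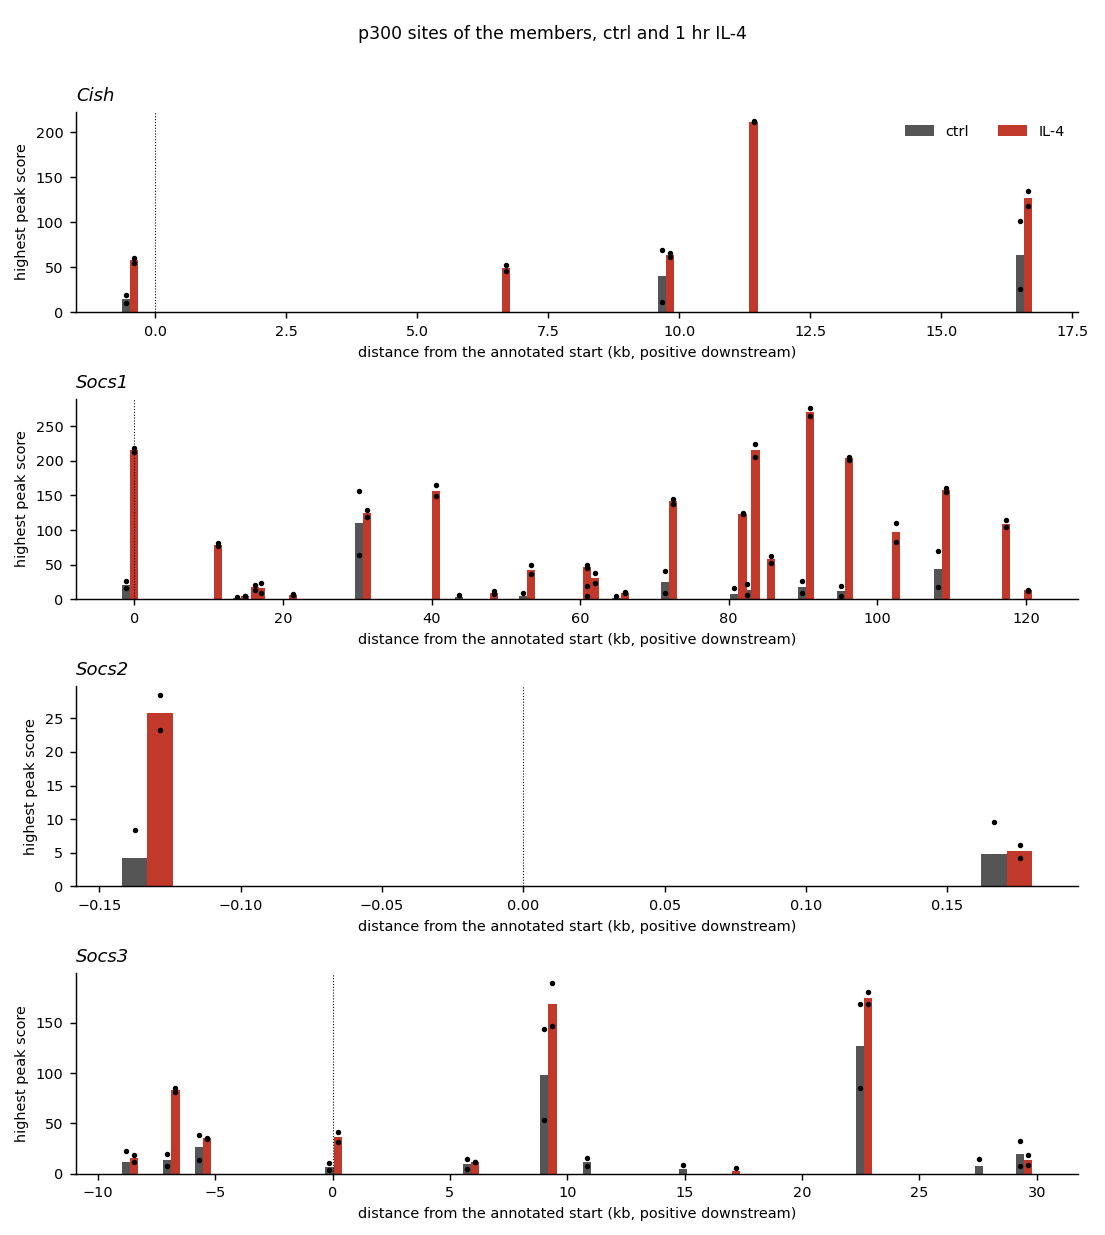
Highest p300 score of each site by its distance from the annotated start (kb), with gray bars for the mean of 2 ctrl libraries and red bars for the mean of 2 IL-4 libraries, set side by side, and dots for the libraries; a library without a peak counts as 0 in the mean and has no dot. Along Socs1 the tallest red bar stands at +90.4 kb (275.8 and 264.8), whereas at Socs3 the tallest sites at +9.2 and +22.6 kb have bars in both groups.

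At Socs1, 11 of 24 sites with p300 had it in both IL-4 libraries and in neither ctrl library, against 9.1% of all p300 sites. The reverse, p300 in both ctrl libraries and in neither IL-4 library, was found at 0 of the 24, against 0.849%. The promoter site (-0.6 kb) rose from 15.8 and 25.7 to 218.6 and 213.3 (2.75 ± 0.24, adjusted p = 2e-10). The site at +40.1 kb, just past the end of Clec16a, had no ctrl peak and scores of 149.7 and 164.4 with IL-4. The site at +90.4 kb rose from 9.27 and 26 to 275.8 and 264.8 (3.45 ± 0.22, adjusted p = 1.7e-13), and those at +83.1 and +95.6 kb rose by 3.52 ± 0.23 and 3.79 ± 0.24. The site at +30.7 kb stood out from its neighbors, with 63.4 and 157.0 in ctrl and 119.4 and 128.6 in IL-4 (-0.36 ± 0.21, adjusted p = 0.261). Of the 12 Socs1 sites with a peak in both groups, 9 rose and 0 fell, and without ctrl replicate 1 8 of 11 rose and 0 fell.

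At Cish, the site at +11.3 kb, with 3 STAT matches, had no peak in ctrl and scores of 211.0 and 212.1 with IL-4, the highest of the gene. The site at +6.6 kb also had no peak in ctrl and 45.9 and 51.9 with IL-4. The promoter site rose from 9.79 and 19 to 60.5 and 54.6 (1.41 ± 0.29, adjusted p = 0.00052). The site at +9.7 kb, with the NF-κB letters, had 10.7 and 68.5 in ctrl and 65.5 and 61.4 in IL-4 and was not called (0.56 ± 0.27, adjusted p = 0.151, and -0.03 without ctrl replicate 1). At the Socs2 promoter p300 had no peak and 8.46 in ctrl and 23.2 and 28.4 in IL-4 (2.26 ± 0.63, adjusted p = 0.009, and 1.69 ± 0.37 without ctrl replicate 1, adjusted p = 0.013).

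At Socs3, 7 of 12 sites with p300 had it in all 4 libraries, against 49.8% of all p300 sites, and 0 of 12 had it in both IL-4 libraries and in neither ctrl library. The sites at +9.2 kb (53 and 144.2 in ctrl, 146.6 and 190.3 in IL-4, adjusted p = 0.434) and +22.6 kb (84.8 and 169.1, then 169.3 and 180.6, adjusted p = 0.749) were the strongest. The site at -6.9 kb rose from 7.55 and 19.2 to 85.5 and 81.2 (2.12 ± 0.27, adjusted p = 2e-07), and that at the start rose from 3.32 and 10.1 to 41.2 and 31.6 (1.97 ± 0.44, adjusted p = 0.001). The site near +11 kb went the other way, with 7.94 and 15.4 in ctrl and no peak in IL-4. Over the 4 genes, 14 of the 25 p300 sites with a peak in both groups rose and 0 fell, against 23.3% of 59145 such sites called in either direction.

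PU.1, which macrophages carry on enhancers throughout the genome, rose at Socs1. Its summed score was 104.8 and 85.1 in ctrl and 400.2 and 478.8 in IL-4 (1.92 ± 0.17, adjusted p = 5.7e-05), and it was not called if only the highest peak was used (0.90, adjusted p = 0.349). Cish had 16 and 27.1 in ctrl and 33.1 and 51.5 in IL-4 (0.70 ± 0.50, adjusted p = 0.602). Socs3 had 216.4 and 135.7 in ctrl and 215.8 and 224.7 in IL-4 (0.07 ± 0.16, adjusted p = 0.906), and Socs2 had no PU.1 peak. The 1 called gene of 3 compares with 2.72% of 15653 genes. Of the 18 PU.1 sites of the 3 genes with a peak in both groups, the Socs1 site at +90.3 kb was the 1 that passed, with 20.2 and 13.3 in ctrl and 94.8 and 82.5 in IL-4 (2.10 ± 0.29, adjusted p = 0.037), against 0.243% of 61647 such sites. At Socs1, 8 of 26 sites had a PU.1 peak in both IL-4 libraries and in neither ctrl library, against 3.59% of all PU.1 sites, among them +4.4 kb (17.2 and 30.4) and +83.1 kb (16 and 44.7).

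HDAC3 and HDAC2 were called higher at Socs1, and HDAC3 at Cish, in calls that depended on the processing. For HDAC3, Socs1 had 3.73 and no peak in ctrl, and 82.9 and 85 in IL-4 (4.78 ± 0.59, adjusted p = 1.5e-12). Cish had 14.5 and no peak in ctrl and 30.1 and 42.7 in IL-4 (2.57 ± 0.63, adjusted p = 0.003). The call of Cish was lost with the highest peak alone (1.60, adjusted p = 0.296) and without intergenic peaks (2.83, adjusted p = 0.125). It was also lost with the upper 50% of peaks (0.78, adjusted p = 0.435). Both calls depended on the scaling. Without centering, Socs1 had a value of 5.20 (adjusted p = 0.211) and Cish 2.99 (adjusted p = 0.350), with 1 common floor after centering they had 5.13 (adjusted p = 0.198) and 2.93 (adjusted p = 0.283), as large as before but not called, and the call of Cish was lost without IL-4 replicate 1 (adjusted p = 0.108) or IL-4 replicate 2 (adjusted p = 0.559). Socs3 had 83.1 and 72.4 in ctrl and 105.3 and 90.7 in IL-4 (-0.09 ± 0.21, adjusted p = 0.885), most of it at +9.2 and +22.6 kb. Socs2 had no peak and 5.18 in ctrl and 9.36 and 17.9 in IL-4 (1.85 ± 0.99, adjusted p = 0.294). The 2 called genes compare with 7.17% of 6015 genes. Of the 7 HDAC3 sites with a peak in both groups 0 were called, against 1.84% of 10594 such sites. The Socs1 site at +83.0 kb had no peak in ctrl and 16.1 and 18.7 in IL-4.

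HDAC2 at Socs1 rose from 35.8 and 30 to 134.6 and 86.7 (1.64 ± 0.24, adjusted p = 6.4e-07), which was not called without centering (1.72, adjusted p = 0.923), with 1 common floor (1.64, adjusted p = 0.438), or with the highest peak alone (0.62, adjusted p = 0.661). Cish had 4.39 and 7.46 in ctrl and 24 and 21.9 in IL-4 (1.92 ± 0.60, adjusted p = 0.133), and Socs3 36.4 and 46.3, then 53.4 and 39.6 (adjusted p = 0.996). The HDAC2 call of 1 gene compares with 0.755% of 10464 genes. For HDAC1, limma called 0 of the 3 genes with a peak and 0% of 12319 genes, of which 970 had an unadjusted p under 0.05. Cish had 6.76 and 11.4 in ctrl and 13.1 and 13.2 in IL-4, Socs1 49.4 and 52.1, then 60.9 and 67.5, and Socs3 43.3 and 36.7, then 45.1 and 29.4. Socs2 had no HDAC1 or HDAC2 peak.

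**Figure D3:**
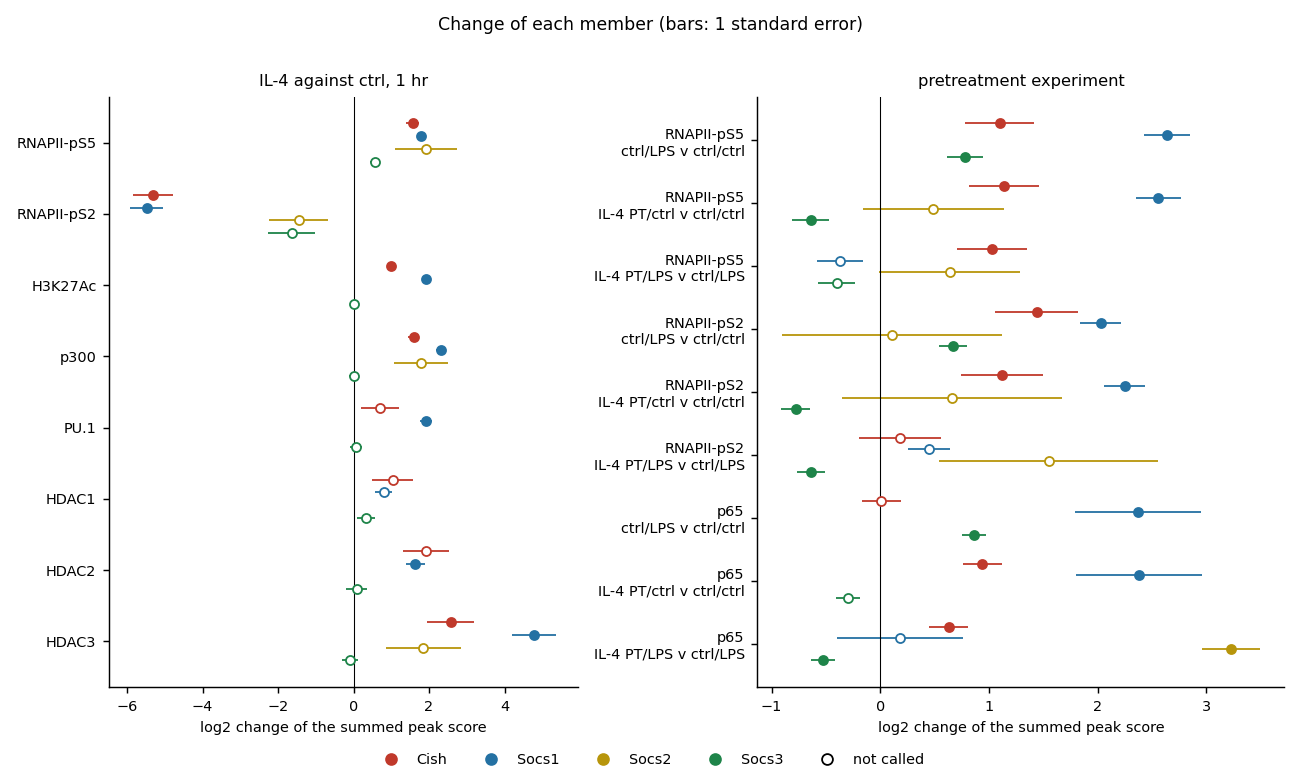
Log2 change of the summed peak score of each gene relative to the typical gene of the same libraries (points) with 1 standard error (bars), in the 1 hr experiment (left) and in 3 comparisons of the pretreatment experiment (right); filled points passed an adjusted p of 0.1, and RNAPII-pS2 of the 1 hr experiment is shown as labelled; for genes without a peak in 1 group (Cish for RNAPII-pS2 at 1 hr, and Socs2) the size is set by the lowest score. Blue points (Socs1) lie right of red points (Cish) for H3K27Ac (1.91 against 1.00), p300 (2.31 against 1.59), and HDAC3 (4.78 against 2.57), and green points (Socs3) lie close to 0 for H3K27Ac, p300, PU.1, HDAC2, and HDAC3.

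In the pretreatment experiment, RNAPII-pS5 at Socs1 was higher after IL-4 PT, after LPS, and after both, but no higher after both than after either. Its summed score was 11.4 and 7.73 in ctrl/ctrl, 60.3 and 56.2 in IL-4 PT/ctrl, 47 and 46.2 in ctrl/LPS, and 44.6 and 43.4 in IL-4 PT/LPS. All treated libraries lay above both ctrl/ctrl libraries, an order whose share among all genes was not counted. LPS raised it by 2.64 ± 0.21 (adjusted p = 0.002) and IL-4 PT by 2.56 ± 0.21 (adjusted p = 0.004). Under LPS, IL-4 PT changed it by -0.37 ± 0.21 (adjusted p = 0.317). The difference between these effects of IL-4 PT was -2.93 ± 0.30 (interaction, adjusted p = 0.024). With the highest peak alone the IL-4 PT change was 0.78 (adjusted p = 0.110). The interaction was kept without any 1 library (-3.15 to -2.70), but not with the highest peak alone (-0.93, adjusted p = 0.158) or without intergenic peaks (-1.20, adjusted p = 0.113). RNAPII-pS2 also gave a negative interaction. Its Socs1 score was 27.6 and 20.1 in ctrl/ctrl, 99.8 and 114.3 in IL-4 PT/ctrl, 127.2 and 99.1 in ctrl/LPS, and 181.5 and 137.1 in IL-4 PT/LPS. LPS raised it by 2.03 ± 0.19 (adjusted p = 0.00065), IL-4 PT by 2.25 ± 0.19 (adjusted p = 0.00094), and IL-4 PT under LPS by 0.45 ± 0.19, which did not pass (adjusted p = 0.181). The interaction was -1.80 ± 0.26 (adjusted p = 0.020, and -0.46 with the highest peak alone, adjusted p = 0.305).

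RNAPII-pS5 sites at Socs1 differed between the treatments. The sites at +61.4 and +71.9 kb in Clec16a had peaks in both IL-4 PT/ctrl libraries and in no other (4.08 and 3.89, and 7.96 and 6.27). The site at +108.7 kb had no peak in ctrl/ctrl or IL-4 PT/ctrl, 12.7 and 11.3 in ctrl/LPS, and no peak and 3.2 in IL-4 PT/LPS (-2.67 ± 0.42 against ctrl/LPS, adjusted p = 0.010). The region across the end of the gene (+2.9 kb) had no peak in ctrl/ctrl, 16.4 and 16.2 in IL-4 PT/ctrl, 14.8 and 18.7 in ctrl/LPS, and 5.82 and 4.34 in IL-4 PT/LPS. The promoter site had 11.4 and 7.73 in ctrl/ctrl, no peak in IL-4 PT/ctrl, 7.85 and 10.1 in ctrl/LPS, and 16.6 and 18.4 in IL-4 PT/LPS. Among RNAPII-pS5 sites with a peak in both groups compared, LPS raised 1 of 4 sites of the 4 genes and lowered 0 (26.2% of all such sites were called), IL-4 PT changed 0 of 4 (9.26%), and IL-4 PT under LPS raised 1 of 9 and lowered 3 (12.9%).

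RNAPII-pS5 at Cish passed the test for LPS, for IL-4 PT, and for IL-4 PT under LPS, and RNAPII-pS2 for the first 2 of these. Each of these calls was lost without some single libraries. RNAPII-pS5 scored 21.8 and 10.5 in ctrl/ctrl, 38.7 and 31.9 in IL-4 PT/ctrl, 25.7 and 26.2 in ctrl/LPS, and 63.2 and 65.9 in IL-4 PT/LPS, so that the libraries given both treatments were the highest. The change was 1.10 ± 0.32 with LPS (adjusted p = 0.040), 1.14 ± 0.32 with IL-4 PT (adjusted p = 0.072), and 1.03 ± 0.32 with IL-4 PT under LPS (adjusted p = 0.083). The interaction was -0.11 ± 0.45 (adjusted p = 0.914). The LPS call was lost without ctrl/ctrl replicate 2 (0.61, adjusted p = 0.123) or either ctrl/LPS replicate (adjusted p = 0.108 and 0.103), the IL-4 PT call was kept in 1 of 8 fits that left out a library, and the call for IL-4 PT under LPS in 2 of 8. Without intergenic peaks the value under LPS was 0.58 (adjusted p = 0.565). With the highest peak alone the 3 changes were 0.039, 0.14, and 0.21, and none was called. RNAPII-pS2 scored 12.9 and 28.6 in ctrl/ctrl, 31.6 and 50.2 in IL-4 PT/ctrl, 66.8 and 55.3 in ctrl/LPS, and 72.9 and 69 in IL-4 PT/LPS. It rose by 1.44 ± 0.38 with LPS (adjusted p = 0.024, and 1.37 without ctrl/LPS replicate 1, adjusted p = 0.104) and by 1.12 ± 0.38 with IL-4 PT (adjusted p = 0.082, kept in 1 of 8 fits without a library). Under LPS, IL-4 PT changed it by 0.18 ± 0.38, which did not pass (adjusted p = 0.860), and with the highest peak alone by -0.81 (adjusted p = 0.089).

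**Figure D4:**
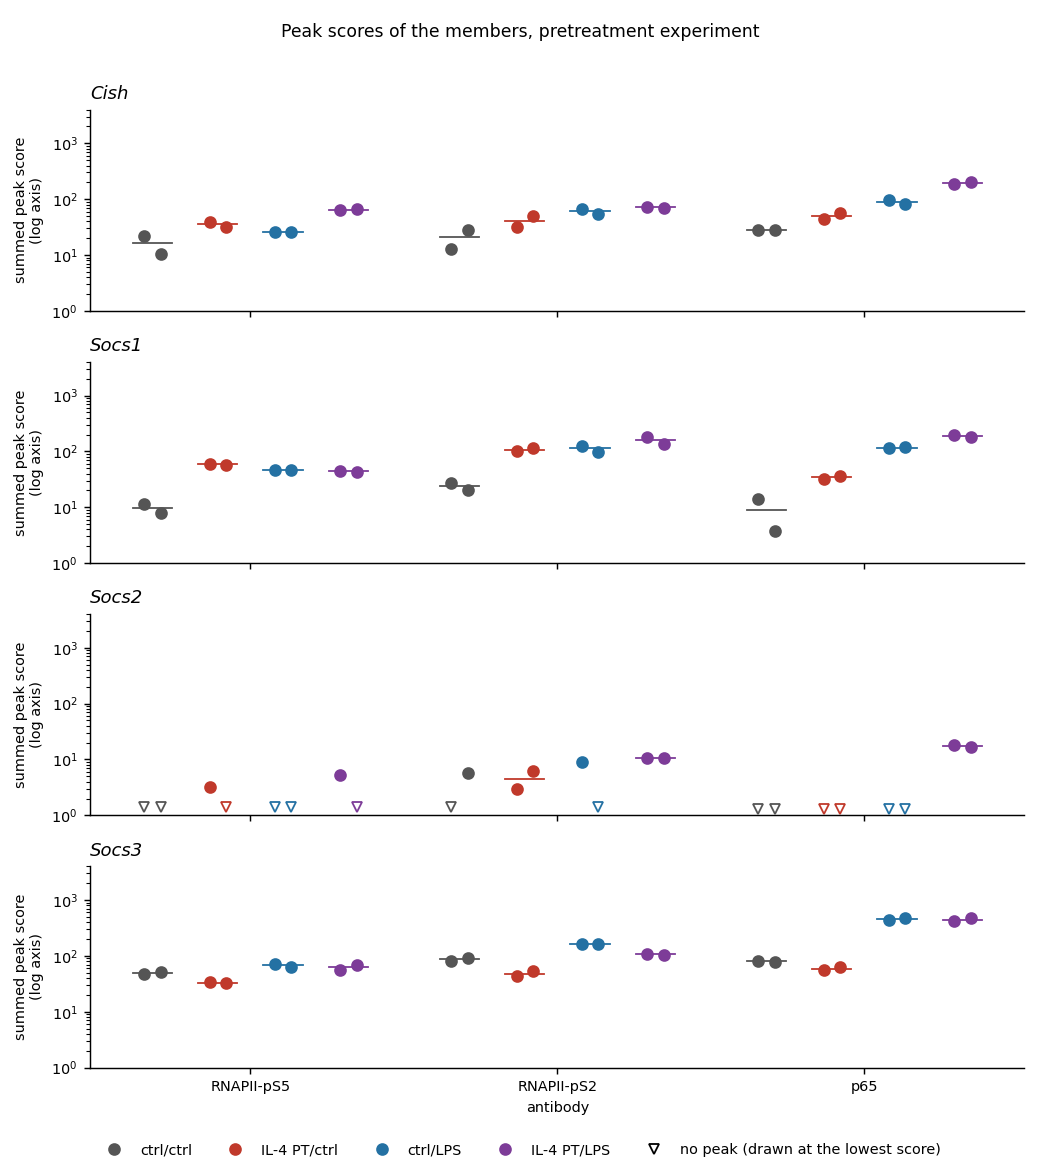
Summed peak score of each gene (log axis) in each library of the pretreatment experiment, by antibody; points are libraries, lines are means of 2 libraries, and open triangles mark libraries without a peak. For RNAPII-pS5 at Socs1 the gray ctrl/ctrl points (11.4 and 7.73) lie below the points of the other 3 groups, which lie between 43.4 and 60.3, and for p65 Socs2 has scores only in IL-4 PT/LPS.

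At Socs3, LPS and IL-4 PT moved RNAPII in opposite directions. RNAPII-pS2 scored 80.9 and 92.4 in ctrl/ctrl, 43.5 and 52.8 in IL-4 PT/ctrl, 160.1 and 161.8 in ctrl/LPS, and 109.1 and 103.5 in IL-4 PT/LPS. LPS raised it by 0.67 ± 0.13 (adjusted p = 0.008), IL-4 PT lowered it by 0.78 ± 0.13 (change of -0.78, adjusted p = 0.007), and IL-4 PT under LPS lowered it as well (-0.64 ± 0.13, adjusted p = 0.023). The interaction was 0.14 ± 0.18 (adjusted p = 0.695). With the highest peak alone the IL-4 PT value was -0.56 (adjusted p = 0.112). Without intergenic peaks the IL-4 PT value was -0.78 (adjusted p = 0.144), and the value under LPS was -0.051 (adjusted p = 0.984). The call under LPS was also lost without ctrl/LPS replicate 2 (-0.61, adjusted p = 0.104) or IL-4 PT/LPS replicate 2 (-0.63, adjusted p = 0.105). RNAPII-pS5 scored 47.6 and 50.8 in ctrl/ctrl, 34 and 32.6 in IL-4 PT/ctrl, 71.1 and 63.5 in ctrl/LPS, and 56.8 and 67.8 in IL-4 PT/LPS. It rose by 0.78 ± 0.17 with LPS (adjusted p = 0.015) and fell with IL-4 PT (-0.64 ± 0.17, adjusted p = 0.061, kept in 4 of 8 fits without a library), while the change with IL-4 PT under LPS did not pass (-0.40 ± 0.17, adjusted p = 0.174). The fall of RNAPII-pS5 with IL-4 PT was not called with the highest peak alone (-0.43, adjusted p = 0.141) or without intergenic peaks (-0.68, adjusted p = 0.358). The LPS gain was at the gene itself, where RNAPII-pS5 at +2.7 kb went from 11.7 and 20.1 to 49 and 44.2 (1.78 ± 0.31, adjusted p = 0.007). The site at +9.2 kb had 12.9 and 9 in ctrl/ctrl and no peak in ctrl/LPS.

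With RNAPII-pS5, 3 of 3 genes were called for LPS, where Socs2 had no peak in either group, against 40.3% of all genes. For IL-4 PT 3 of the 4 were called, against 15.4%. For IL-4 PT under LPS 1 was called, against 22.4%. With LPS in pretreated cells 2 were called, against 31.8% (Cish 0.99 ± 0.32, Socs3 1.01 ± 0.17), and the interaction was called for 1, against 12.6%. With RNAPII-pS2, 3 were called for LPS (42.8% of all genes), 3 for IL-4 PT (27.9%), 1 for IL-4 PT under LPS (19.8%), 1 for LPS in pretreated cells (35.9%, Socs3 0.81 ± 0.13), and 1 for the interaction (13.3%). These comparisons share control libraries. The median RNAPII-pS5 change of all genes with LPS was -0.45, and Cish, Socs1, and Socs3 lay above it. Socs2 had an RNAPII-pS5 peak in 1 IL-4 PT/ctrl library (3.16) and in 1 IL-4 PT/LPS library (5.17). With RNAPII-pS2, it scored no peak and 5.79 in ctrl/ctrl, 2.95 and 6.17 in IL-4 PT/ctrl, 9.13 and no peak in ctrl/LPS, and 10.7 and 10.8 in IL-4 PT/LPS, and no comparison passed (adjusted p = 0.397 to 0.941).

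Socs3 had the highest p65 score of the 4 genes in every library, and LPS raised it. The summed p65 score of Socs3 was 81.1 and 78.1 in ctrl/ctrl, 55.2 and 62.3 in IL-4 PT/ctrl, 434.1 and 469.5 in ctrl/LPS, and 414.0 and 474.9 in IL-4 PT/LPS. The p65 score of the typical gene itself rose by 1.64 on the log2 scale with LPS, and Socs3 rose by a further 0.86 ± 0.11 (adjusted p = 0.003). The difference between IL-4 PT/LPS and ctrl/LPS was -0.53 ± 0.11 relative to the typical gene (adjusted p = 0.026). Without centering it was -0.026 (adjusted p = 0.890), because the typical p65 score was 0.50 higher in IL-4 PT/LPS, and it was lost without ctrl/LPS replicate 2 (adjusted p = 0.101) or either IL-4 PT/LPS replicate (adjusted p = 0.203 and 0.161). Without intergenic peaks the direction turned (1.87, adjusted p = 0.014). The strongest site, at +22.8 kb, had 19.6 and 34.1 in ctrl/ctrl, 33.2 and 31 in IL-4 PT/ctrl, 173.5 and 169.7 in ctrl/LPS, and 166.2 and 188.5 in IL-4 PT/LPS (LPS 1.69 ± 0.25, adjusted p = 0.005). The site at -8.7 kb, with the NF-κB letters, fell with IL-4 PT from 30.6 and 23.4 to 6.11 and 8.43 (-1.70 ± 0.26, adjusted p = 0.024). With LPS it rose to 103.9 and 132.1, and it had 107.0 and 111.3 in IL-4 PT/LPS.

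At Socs1, p65 scored 14 and 3.76 in ctrl/ctrl, 32.6 and 35.8 in IL-4 PT/ctrl, 114.7 and 119.4 in ctrl/LPS, and 195.5 and 180.7 in IL-4 PT/LPS. It rose by 2.37 ± 0.58 with LPS (adjusted p = 0.023) and by 2.38 ± 0.58 with IL-4 PT (adjusted p = 0.067), a call that was kept in 2 of 8 fits that left out a library. With the highest peak alone the Socs1 change with IL-4 PT was 1.17 and was not called (adjusted p = 0.285). The site at +108.7 kb had the highest scores after LPS, with no peak in ctrl/ctrl, 4.57 and 4.78 in IL-4 PT/ctrl, 70 and 59 in ctrl/LPS, and 82.6 and 63 in IL-4 PT/LPS. The site at +30.8 kb had peaks in the 4 LPS libraries and in no other (16.1 and 24.8 in ctrl/LPS, 23 and 27 in IL-4 PT/LPS). The site at +95.6 kb had peaks in the IL-4 PT/ctrl libraries and in no other (7.45 and 7.46).

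At Cish, p65 scored 28.4 and 28.5 in ctrl/ctrl, 44.1 and 55.4 in IL-4 PT/ctrl, 96.7 and 82.2 in ctrl/LPS, and 184.7 and 206.8 in IL-4 PT/LPS. Relative to the typical gene, LPS changed it by 0.01 ± 0.18 (adjusted p = 0.979), and without centering it rose by 1.65 (adjusted p = 0.00054). IL-4 PT raised it by 0.94 ± 0.18 (adjusted p = 0.034) and, under LPS, by 0.63 ± 0.18 (adjusted p = 0.081, a call that was kept in 2 of 8 fits without a library and turned to -1.08 without intergenic peaks, adjusted p = 0.470). Without LPS, the IL-4 PT change was 0.41 with the highest peak alone (adjusted p = 0.465) and 0.11 without intergenic peaks (adjusted p = 0.926). The +11.4 kb site, at the element where p300 appeared with IL-4, had no p65 peak in ctrl/ctrl or ctrl/LPS, 14.4 and 15.3 in IL-4 PT/ctrl, and 30.7 and 39 in IL-4 PT/LPS. Both groups without IL-4 PT lacked the site, so no size or test is given for it. The site at +15.2 kb had 13.9 and 13.8 in ctrl/LPS and 51.8 and 51.5 in IL-4 PT/LPS (1.63 ± 0.19, adjusted p = 0.001) and no peak without LPS. The promoter site (-0.8 kb) had 45.1 and 36.4 in ctrl/LPS and 25.8 and 26.4 in IL-4 PT/LPS (-0.90 ± 0.80, adjusted p = 0.481).

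**Figure D5:**
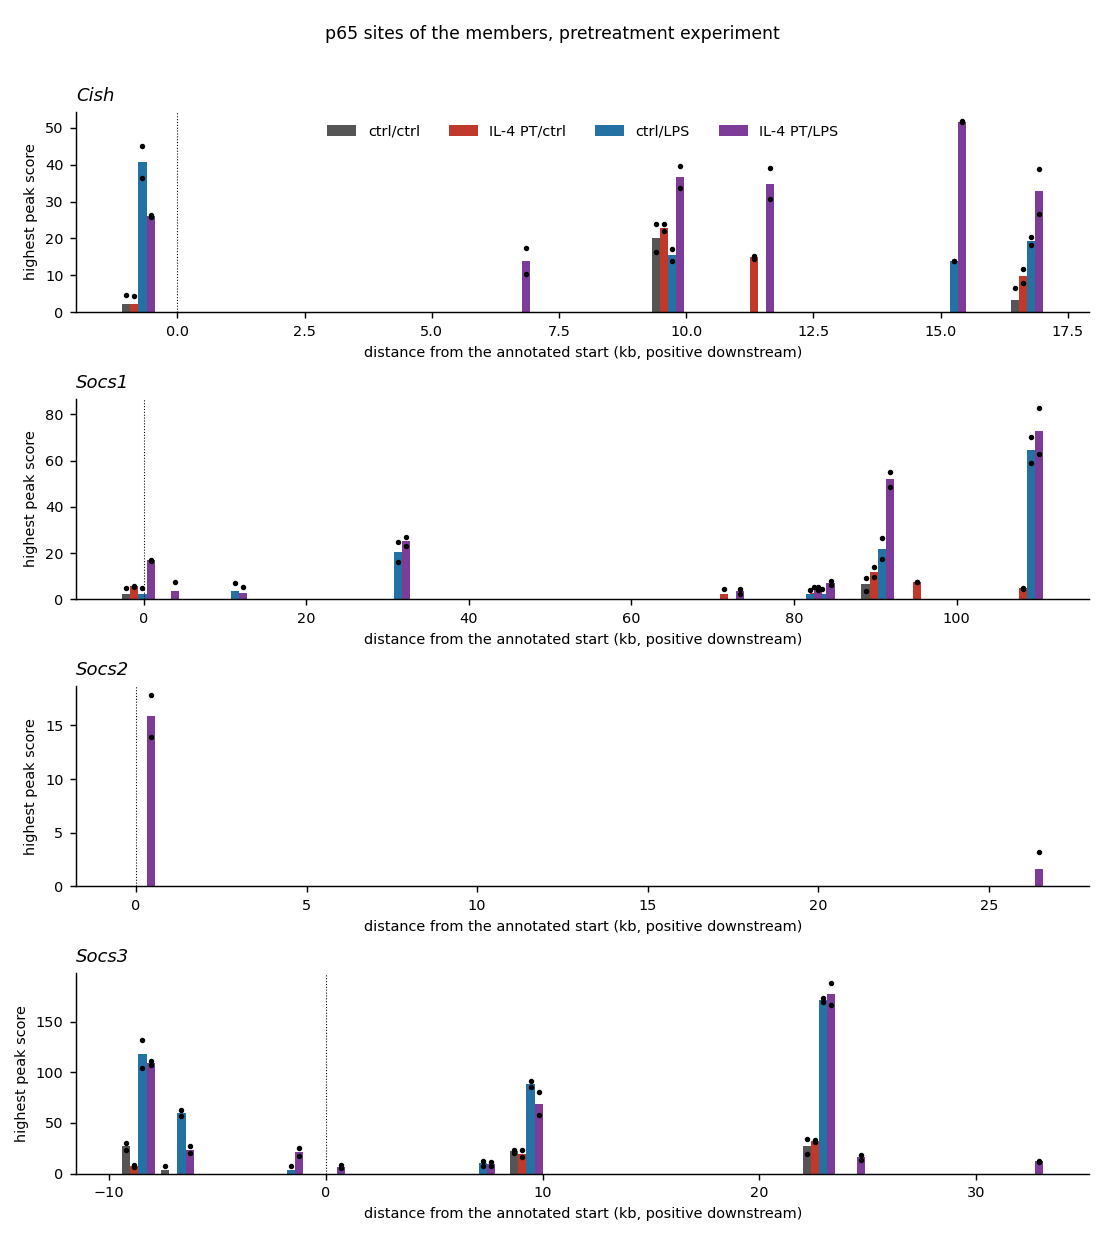
Highest p65 score of each site by its distance from the annotated start (kb), with bars for the mean of 2 libraries of each of the 4 groups, set side by side, and dots for the libraries; a library without a peak counts as 0 in the mean and has no dot. At Cish the red and purple bars near +11.4 kb have no gray or blue partner, and at Socs3 the blue and purple bars at +22.8 kb lie between 166.2 and 188.5.

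Socs2 had p65 peaks in the IL-4 PT/LPS libraries and in no other. Its summed scores there were 17.8 and 17, from a site of 17.8 and 13.9 close to an annotated start and, in replicate 2, a further weak peak at +26.1 kb. The gene entered the test through these 2 libraries alone, so its calls follow from their peaks, and sizes depend on the score given to a missing peak. With the upper 50% of peaks the interaction was not called (0.73, adjusted p = 0.135), and with a floor 4 times as high the change against IL-4 PT/ctrl had the opposite sign (-0.56). At Socs3, sites at +24.2 kb (13.8 and 18.1) and +32.4 kb (12.4 and 11.7) also had p65 in both IL-4 PT/LPS libraries and in no other. These libraries had the most p65 peaks, 36738 and 38955 against 26305 and 26820 in ctrl/LPS, and the part of this difference in the new sites was not tested.

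Of 3 genes tested, without Socs2, p65 was called at 2 with LPS, against 41.9% of genes, and at 2 with IL-4 PT (16.2%). Of all 4 genes it was called at 3 with IL-4 PT under LPS (18.6%), at 2 with LPS in pretreated cells (38.9%), and at 1 for the interaction (12.6%). The last 3 counts include Socs2. Among p65 sites with a peak in both groups compared, LPS raised 5 of 9 and lowered 1 relative to the typical site, against 34.9% of all such sites called. IL-4 PT raised 0 of 8 and lowered 1, against 5.43%, and IL-4 PT under LPS raised 4 of 17 and lowered 0, against 21%.

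Of 59 other genes of the pathway (other SOCS members, receptors, kinases, STATs, phosphatases and other inhibitors, cytokines, and NF-κB inhibitors), 56 had an RNAPII-pS5 score at 1 hr. IL-4 raised 2 of them (1.56% of all genes), Socs4 (no peak in ctrl, 40.6 and 31.6 in IL-4) and Jak2, which encodes a kinase that SOCS proteins inhibit (1.03 ± 0.21). It lowered 1 (1.82% of all genes), Nfkbiz (-0.68 ± 0.10). Socs4 entered the test through the IL-4 libraries alone, so its call follows from their peaks and the lowest score. The median change of the 56 genes was 0.03, against -0.01 over all genes. p300 rose at 9 of 58 (13.5% of all genes) and fell at 7 (14.3%), with the largest gains at Stat2 (2.10), Ptpn2, a phosphatase that acts on JAKs and STATs (1.77), and Il4i1 (1.68). PU.1 rose at 5 of 59 (2.49% of all genes) and fell at 0 (0.236%), and HDAC3 rose at 2 of 42 (4.99%) and fell at 2 (2.18%). H3K27Ac rose at 19 of 55 (20.4%) and fell at 13 (25.1%). With LPS, RNAPII-pS5 rose at 15 of 55 (14.1%) and fell at 10 (26.2%), with a median of 0.39, against -0.45 over all genes. Relative to the typical gene, p65 was called higher at 13 of 54 (27%) and lower at 21 (14.8%). The p65 score of the typical gene itself rose by 1.64 with LPS. A lower call can therefore be a rise smaller than the typical one. Of the other SOCS members, which are Socs4, Socs5, Socs6, and Socs7, 3 had p65 scores with LPS and all 3 were called higher. Socs6 went from 3.99 and 8.86 in ctrl/ctrl to 81.4 and 88.9 in ctrl/LPS. Socs5 (20.3 and 29.1 in ctrl/LPS) and Socs7 (44.8 and 52.7) had no peak in ctrl/ctrl. Their calls in this comparison follow from the LPS libraries and the lowest score.

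Across the 12 RNAPII-pS5 libraries of both experiments, each experiment centered on the gene's own mean, the genes most like Socs1 were Tmem52b (r = 0.97), C330024C12Rik (r = 0.97), and Zc3h12c (r = 0.95), out of 11515 genes. Those most like Cish were Gprc5c, Adhfe1, and Rnf19b (r = 0.93 each), and those most like Socs3 were Gm4951 (r = 0.94), Ifi47 (r = 0.94), and Ccl4 (r = 0.93). The points share their libraries, so these values are a description. Socs2 had peaks in 4 of the 12 libraries and was not compared.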

How the data were processed

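ChIP-seq peak lists of 56 samples from mouse BMDMs were used, 1 list per sample. Per the labels, reads were mapped with BWA 0.7.10 to mm10, handled with SAMtools 0.1.19, and peaks were called with MACS2 2.0.10 or HOMER 4.2 and annotated with HOMER. By the study's methods, MACS2 peaks passed a q-value of 0.01, H3K27Ac regions came from HOMER, and blacklisted regions were removed. Whether an input library was used is not given in the sources used here. The peak score that the authors deposited is a −log10 of a p- or q-value for MACS2 (the sources do not say which) and a signal of normalized tags for H3K27Ac. Columns with annotations and distances are the authors' own.

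Samples were grouped by the antibody and treatment in their labels, and the study calls the replicates biological. For each gene, peak scores were summed per library, missing values were set to the lowest score of the antibody in the experiment, log2 values were centered on the median of genes with a peak in every library, and every gene that had peaks in 2 or more libraries was tested with limma 3.58.1 (R 4.3.3, moderated variance with a trend), with Benjamini-Hochberg adjustment over all genes and an adjusted p of at most 0.1. Peaks overlapping by at least 1 bp were merged into sites, the highest score per library was kept, and sites were tested the same way. The 4 pretreatment groups shared 1 fit. An exact permutation test of 2 against 2 libraries cannot go below p = 0.333. Scripts were checked on simulated data. Python 3.11.15, pandas 2.3.3, and numpy 2.4.6 were used otherwise.

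The members and gene lists were chosen with earlier results of these data known. After seeing the data, a call was required to have a peak in at least 1 of the compared libraries, and a floor applied after centering and the p300 sites without ctrl replicate 1 were added. Also after seeing the data, counts of sites were limited to sites with a peak in every group compared. Named were the 4 genes, their promoter site and the 3 other sites with the highest mean score for each antibody, and at most 3 called genes of the pathway with the largest change per comparison. Sites beyond these were chosen after their values were seen. Pairs of replicates shared at most 0.74% of identical regions, with a correlation of gene scores from 0.778 to 0.985 across genes, so none was a duplicate. Sequencing depth is unknown, and no reads were analysed here. In the labels HDAC3 and H3K27Ac antibodies carry the same catalogue number.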

Additional observations from a re-analysis of the deposited data

Results flagged for a closer look

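The 3 results below stood out because the effect of IL-4 PT differed between cells with and without LPS by the interaction term of the limma fit. For Socs1, RNAPII-pS5 gave an interaction of -2.93 (adjusted p = 0.024), where IL-4 PT changed the score by 2.56 without LPS and by -0.37 with it. RNAPII-pS2 gave -1.8 for Socs1 (adjusted p = 0.020), with 2.25 without LPS and 0.45 with it. For Socs2, p65 gave 3.08 (adjusted p = 0.019), where peaks were present in both IL-4 PT/LPS libraries (17.8 and 17) and in no other. This gene entered the test through that group alone, the size depends on the score given to a missing peak, and with the upper 50% of peaks the value was 0.73 and not called (adjusted p = 0.135). Leaving out each library in turn gave -3.15 to -2.7 and -2.01 to -1.63 for the Socs1 values. For Socs2 it gave 3.03 to 3.12, a range set by the lowest score, since the libraries of the other groups had no peak. Groups of 2 libraries are too small for a test of outlying libraries.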

How the results depend on the processing

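The number of the 4 genes called was most sensitive to how peaks were combined. A count is said to move when it differs by more than 1.5 times. With the highest peak in place of the sum, the count moved in 15 of 23 comparisons, and within that limit p300 gained Socs2 (2.06, adjusted p = 0.031). RNAPII-pS5, PU.1, and HDAC2 at 1 hr called 0 and HDAC3 1. In the pretreatment experiment RNAPII-pS5 called 0 for IL-4 PT, 0 for IL-4 PT under LPS, 1 for LPS in pretreated cells, and 0 for the interaction. RNAPII-pS2 called 1, 2, 2, and 0 in the same order, and p65 called 0 for IL-4 PT, 1 for IL-4 PT under LPS, and 2 for the interaction. The highest peak also turned the direction of RNAPII-pS5 at Socs1 (-0.24), of Socs3 for p300 (-0.2), HDAC1 (-0.24), HDAC2 (-0.42), and HDAC3 (0.084), of Cish for RNAPII-pS2 with IL-4 PT under LPS (-0.81) and p65 with LPS (-0.23), and of p65 at Socs3 with IL-4 PT (0.18) and at Socs1 with IL-4 PT under LPS (-0.14). Without intergenic peaks, HDAC3 called 1, RNAPII-pS5 called 0 for IL-4 PT under LPS and 0 for the interaction, RNAPII-pS2 called 1 for IL-4 PT and 0 for IL-4 PT under LPS, and p65 called 1 for IL-4 PT, 1 for LPS in pretreated cells, and 2 for the interaction. Directions turned at Socs3 for H3K27Ac (1.01) and, with IL-4 PT under LPS, at Socs1 for RNAPII-pS5 (0.42), at Cish for RNAPII-pS2 (-0.42) and p65 (-1.08), and at Socs3 for p65 (1.87). The causes were not tested.

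Without centering, p300 called 1, HDAC2 and HDAC3 0, for LPS in pretreated cells RNAPII-pS5 called 1 and p65 4, and Socs3 turned for HDAC1 (-0.13) and HDAC3 (0.33). With 1 floor after centering HDAC2 and HDAC3 called 0. With a floor 4 times as high HDAC2 called 2, RNAPII-pS5 2 for IL-4 PT under LPS, and p65 2 for the interaction, and Socs2 turned for RNAPII-pS2 at 1 hr (0.08) and for p65 with LPS in pretreated cells (-0.56). With a peak required in every library, RNAPII-pS2 at 1 hr called 1, HDAC3 0, and p65 1 for IL-4 PT under LPS (Cish, still tested, had 0.63, adjusted p = 0.114) and 1 for LPS in pretreated cells. Cish and Socs1 were then not tested for RNAPII-pS2 at 1 hr, and Socs3 was called (adjusted p = 0.064). The causes of the other changes were not tested. The upper 50% of peaks called 1 for HDAC3, 1 for RNAPII-pS5 with LPS, and 2 with IL-4 PT under LPS, and turned Socs3 for H3K27Ac (0.25), PU.1 (-0.04), and HDAC2 (-0.21), Cish for RNAPII-pS2 with IL-4 PT under LPS (-0.32), and Socs2 for p65 with LPS in pretreated cells (-0.76). An adjusted p of at most 0.05 called 1 for IL-4 PT, 0 for IL-4 PT under LPS, and 1 for LPS in pretreated cells with RNAPII-pS5, and 1 for IL-4 PT with p65. An unadjusted p of at most 0.05 called 4 for RNAPII-pS5 at 1 hr, 1 for HDAC1, and 2 each for HDAC2, for IL-4 PT under LPS with RNAPII-pS5 and RNAPII-pS2, and for the p65 interaction.

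Leaving out each library in turn gave 2 to 3 called genes for RNAPII-pS5, 1 to 2 for RNAPII-pS2, 2 for H3K27Ac, 2 to 3 for p300, 1 for PU.1, 0 for HDAC1, 1 to 2 for HDAC2, and 1 to 3 for HDAC3 at 1 hr. In the pretreatment experiment it gave, for LPS, IL-4 PT, IL-4 PT under LPS, LPS in pretreated cells, and the interaction, 2 to 3, 1 to 2, 0 to 1, 1 to 2, and 1 for RNAPII-pS5, 2 to 3, 2 to 3, 0 to 1, 1, and 1 to 2 for RNAPII-pS2, and 2, 1 to 2, 0 to 3, 1 to 3, and 0 to 2 for p65. The direction turned at Socs3 for H3K27Ac (-0.067 to 0.056), p300 (-0.13 to 0.15), HDAC2 (-0.25 to 0.40), and HDAC3 (-0.34 to 0.16) and at Cish for p65 with LPS (-0.14 to 0.15), none of them called. A lone remaining library was assumed to vary like the others. Same-numbered replicates shared only a number (correlation of their deviations between -0.03 and 0.07), and the fit with a replicate block moved the count of genes by more than 1.5 times in 0 of 23 comparisons. It added Socs3 for RNAPII-pS5 at 1 hr (adjusted p = 0.073) and Socs2 for p300 (adjusted p = 0.030) and lost Cish for p65 with IL-4 PT under LPS (adjusted p = 0.130). With the replicate block, called sites of the 4 genes numbered 2 for PU.1 and 1 for RNAPII-pS2 with IL-4 PT, which was also 1 with an overlap of 50%. When sites without a peak in 1 of the groups were counted as well, called sites numbered 14 for RNAPII-pS5, 8 for RNAPII-pS2, 26 for p300, and 1 for HDAC3 at 1 hr. In the pretreatment experiment they numbered 7 for LPS, 7 for IL-4 PT, 8 for LPS in pretreated cells, and 7 for the interaction with RNAPII-pS5, 10, 9, 11 (IL-4 PT under LPS), 14, and 9 with RNAPII-pS2, and 10, 4, 10, 15, and 9 with p65 in that order. With 2 libraries a group and no read counts, small changes could not be detected.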
